A study of Homo sapiens with 8 samples.

Results

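The 36 genes described here encode 20 integrin chains, 8 laminin chains, 6 further matrix proteins and 2 receptor partners of the cell surface. They were chosen by symbol, with earlier results of these data known and by a rule that uses no measured value, and all 36 were found, among 60234 genes of a normoxia table and 60612 genes of a hypoxia table. The cells were DLD1, a line derived from a human colorectal adenocarcinoma, which carried either a short hairpin RNA against PPA2, the gene of the mitochondrial inorganic pyrophosphatase, or a control hairpin (genotype label WT). Cells of both kinds were kept for 12 h under hypoxia or under normoxia, and messenger RNA was sequenced from 2 libraries of each of the 4 groups, 8 in all. The labels name 1 hairpin against PPA2 and no rescue, and do not say whether replicates were separate cultures, so the errors and p-values measure the spread between these libraries, which may be technical.

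Integrins are receptors of 1 alpha and 1 beta chain that tie the cytoskeleton to the extracellular matrix, and the pairing of the chains decides which ligand is bound. Laminins are trimers of an alpha, a beta and a gamma chain, and with type IV collagen, perlecan and agrin they build the basement membrane on which epithelial cells of the colon rest. Integrin α6β4 anchors such cells, in hemidesmosomes, to the laminin that holds the products of LAMA3 and LAMB3, while integrins with the β1 or the αV chain bind laminins, collagens, fibronectin and latent TGF-β.

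PPA2 itself checked the knockdown. Its level was 9.85 and 9.0 FPKM (fragments scaled by gene length and library size) in knockdown libraries, against 65.5 and 50.8 FPKM in control libraries, under hypoxia. Under normoxia it was 5.88 and 5.74 RPKM (reads scaled likewise) in knockdown libraries, against 79.8 and 84.1 RPKM in control libraries. On the log2(value + 1) scale used for all tests, PPA2 fell by 2.49 ± 0.12 (SE) under hypoxia (limma adjusted p = 3.01e-05) and fell by 3.61 ± 0.06 under normoxia (adjusted p = 4.12e-06). Changes given below as a fold are folds of value + 1 and so are smaller than the ratio of the levels. The difference of these fold changes, hypoxia minus normoxia, was 1.11 ± 0.15 (adjusted p = 0.00034), so the fall of PPA2 relative to control was not matched between the tables. Each oxygen level has its own table, so any difference of responses cannot be told apart from a difference in how the tables were made.

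Depth, estimated from the steps between low RPKM values, ran between 28022389 and 35701146 reads in the normoxia libraries and is unknown for the hypoxia libraries. Replicates correlated across genes at r between 0.992 and 0.995. Of 12 colon epithelial marker genes 8 reached a level of 1 in every library, CDH1, EPCAM and KRT8 among them, and CDX1 and GPA33 were below 1 throughout. All 8 fibroblast markers were below 1 in every library, with DCN at 0. Of 5 smooth muscle markers 3 were below 1 throughout, while ACTA2 reached 1 in every library and TAGLN in some. The endothelial marker CLDN5 and the leukocyte marker CD14 also reached 1 in some libraries. Transcripts of the mitochondrial genome took 12.5% and 12.4% of the summed level in knockdown libraries and 8.45% and 7.60% in control libraries under hypoxia, and under normoxia 12.1% and 11.4% in knockdown and 11.2% and 10.7% in control libraries. Their part in the results below was addressed only by rescaling.

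Most of the integrin and matrix genes present in these cells had more RNA after PPA2 knockdown. Under hypoxia 29 of the 36 genes passed the filter (mean level of at least 1), of which 17 rose, 3 fell and 9 were not called at an adjusted p under 0.05. Their median log2 fold change was 0.40, beside -0.06 over all 13080 genes tested, of which 58.4% were called, 24.6% higher and 33.8% lower. Among the 17 that rose, ITGA9 passed the filter only through the knockdown libraries. Under normoxia 28 passed the filter, of which 18 rose, 1 fell and 9 were not called, with a median of 0.35, beside 0.07 over all 14090 genes tested. There 34.2% of all genes were called, 22.5% higher and 11.7% lower. The direction of calls over all genes depended on the scaling: 3219 higher and 4418 lower under hypoxia became 3778 and 3906 with median-ratio scaling and 4578 and 2998 with mitochondrial genome genes left out of the total. Over all genes under normoxia, 3165 higher and 1653 lower became 2295 and 2430 with median-ratio scaling and 3976 and 1290 without mitochondrial genome genes. Calls among the 36 genes moved less, to 18 higher and 3 lower, or 19 and 3, under hypoxia, and to 16 higher and 1 lower, or 20 and 1, under normoxia.

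The 7 genes below the filter in both tables were ITGA8, ITGA11, ITGB2, ITGB3, ITGB7, LAMA1 and LAMA4. ITGA8, the alpha chain that binds nephronectin, was listed at 0 in all 8 libraries. The highest level in any library was 0.0741 for ITGA11, 0.420 for ITGB2, 0.191 for ITGB3, 0.668 for ITGB7, 0.909 for LAMA1 and 0.0414 for LAMA4. ITGA10 passed the filter under hypoxia and was untested under normoxia. In bulk RNA, fewer cells that express a gene and less RNA per cell cannot be told apart.

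**Figure D1:**
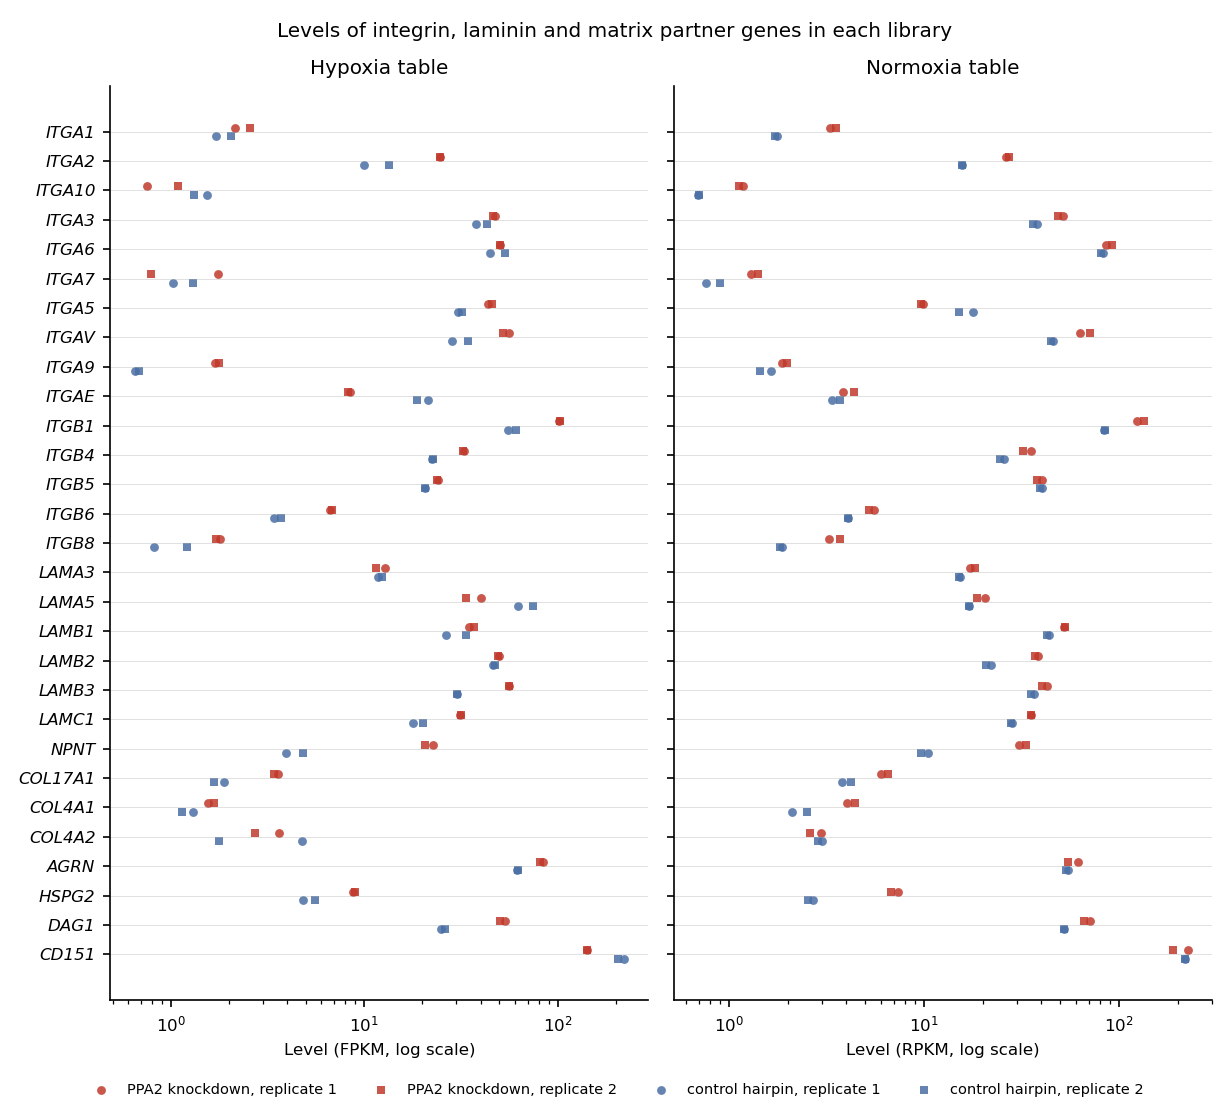
Levels of the 29 genes that passed the filter in at least 1 table, by library, on log axes: hypoxia (FPKM) on the left and normoxia (RPKM) on the right. Red points are PPA2 knockdown and blue points control libraries, with circles for replicate 1 and squares for replicate 2, so that the separation of NPNT, the reverse order of ITGAE under hypoxia and the swap of ITGA5 between panels can be read off.

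The DNA before the RefSeq start of transcription is shown for the genes on which the results turn: NPNT had the greatest change of the 36 genes, ITGA5 changed in opposite directions between the oxygen levels, and COL4A1 and COL4A2, which start in RefSeq on opposite strands of 1 short interval, gave different values. They are RefSeq sequences of GRCh38.p14, and capitals mark matches to a searched motif on either strand. The searched letters were GGGCGG (the GC box bound by SP1), GGAATG (a TEAD motif), ACGTG (the core of the hypoxia response element) and TGANTCA (an AP-1 motif), none of which overlap within the 3 stretches. The first is chr4:105895221-105895470, + strand, and the second chr12:54419267-54419516, - strand, each the 250 bases before the start in RefSeq. The third is chr13:110307158-110307283, + strand, the 126 bases between the RefSeq starts of COL4A1 and COL4A2. The authors' coordinates place some starts elsewhere: NPNT begins at 105894775 there, so the first stretch lies inside that interval, and COL4A2 begins at 110305812, inside COL4A1, which ends at 110307157.
NPNT: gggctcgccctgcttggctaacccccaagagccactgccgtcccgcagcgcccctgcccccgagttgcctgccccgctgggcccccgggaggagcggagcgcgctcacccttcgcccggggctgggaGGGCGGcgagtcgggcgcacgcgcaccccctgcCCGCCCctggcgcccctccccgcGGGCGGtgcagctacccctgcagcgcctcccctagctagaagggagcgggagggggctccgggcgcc
ITGA5: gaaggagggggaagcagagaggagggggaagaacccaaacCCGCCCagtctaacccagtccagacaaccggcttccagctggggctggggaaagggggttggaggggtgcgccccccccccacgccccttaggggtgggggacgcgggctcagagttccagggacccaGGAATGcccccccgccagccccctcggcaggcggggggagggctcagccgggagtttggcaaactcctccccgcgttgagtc
COL4A1 and COL4A2: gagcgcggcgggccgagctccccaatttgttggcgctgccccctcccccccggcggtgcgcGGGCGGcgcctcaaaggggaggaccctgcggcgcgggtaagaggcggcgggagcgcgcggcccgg

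The NPNT stretch held the GC box at -123, -90 and -67, counted from the RefSeq start, and none of the other motifs. In the ITGA5 stretch a GC box lay at -210 and a TEAD match at -82. The interval of the collagen IV pair held 1 GC box. Of the 36 genes 27 had a promoter sequence in the table used, and a gene with several was counted if any held the motif. GGGCGG was found for 18 of these 27 genes, beside 42.6% of all 35116 promoter windows. GGAATG was found for 3 (ITGA10, ITGA5 and ITGB1; 11.9% of all windows), ACGTG for 2 (ITGA11 and ITGA6; 18.5%) and TGANTCA for 2 (LAMA3 and LAMB3; 6.57%). A match describes letters only, and genes with several windows had more chances to match than a single window.

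Among the collagen-binding alpha chains, ITGA2 and ITGA1 pair with β1 to form receptors of fibrillar and type IV collagen. ITGA2 stood at 24.5 and 24.7 FPKM in knockdown libraries, against 9.96 and 13.5 FPKM in control libraries, under hypoxia, and at 26.3 and 27.4 RPKM in knockdown libraries, against 15.7 RPKM in both control libraries, under normoxia. Knockdown was the higher group at both oxygen levels, without overlap. ITGA2 rose by 1.02 ± 0.13 (SE) on the log2 scale under hypoxia (limma adjusted p = 0.000647) and by 0.74 ± 0.06 under normoxia (adjusted p = 0.00064), and the difference of 0.29 ± 0.15 was not called (adjusted p = 0.162). It was called without control hypoxia replicate 2, at 0.49 (adjusted p = 0.00262).

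ITGA1 had low levels, 2.15 and 2.58 FPKM in knockdown libraries and 1.71 and 2.04 FPKM in control libraries under hypoxia. Under normoxia its levels were 3.32 and 3.53 RPKM in knockdown libraries and 1.75 and 1.72 RPKM in control libraries. Knockdown libraries were above control libraries in both tables, by a narrower margin under hypoxia. The log2 fold change was 0.22 ± 0.14 under hypoxia (limma adjusted p = 0.197) and 0.69 ± 0.10 under normoxia (adjusted p = 0.00422), where it was called as a rise, with a difference of -0.47 ± 0.16 (adjusted p = 0.0399). That difference lost its call without any 1 of 6 of the 8 libraries, at adjusted p between 0.0675 and 0.13. ITGA1 shares 475 exonic bases with PELO, another gene on the same strand. ITGA10, a cartilage collagen receptor chain, was at 0.755 and 1.09 FPKM in knockdown and 1.53 and 1.32 FPKM in control libraries under hypoxia. Its levels under normoxia were 1.18 and 1.12 RPKM in knockdown and 0.695 and 0.698 RPKM in control libraries. The order of the groups was thus opposite in the 2 tables. Its difference of responses was -0.68 ± 0.19 (adjusted p = 0.0166), and without knockdown hypoxia replicate 1 it was -0.55 (adjusted p = 0.057). ITGA10 passed the hypoxia filter only through the control libraries and missed the normoxia filter, and with no filter on low values its difference was not called (adjusted p = 0.0651), so it rests on levels near the limit.

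The laminin-binding alpha chains had small changes. ITGA3, which forms integrin α3β1, was between 46.5 and 47.7 FPKM in knockdown and between 37.7 and 43.0 FPKM in control libraries under hypoxia. Under normoxia it was between 48.8 and 51.7 RPKM in knockdown and between 36.4 and 38.0 RPKM in control libraries. It rose by 0.22 ± 0.08 under hypoxia (limma adjusted p = 0.047) and by 0.42 ± 0.06 under normoxia (adjusted p = 0.00331). The hypoxia call was lost on removal of control replicate 1 (adjusted p = 0.0852) or of either knockdown library (adjusted p = 0.203 for replicate 1 and 0.14 for replicate 2). ITGA6, the partner of β4 in hemidesmosomes, overlapped between groups under hypoxia, at 50.2 and 50.5 FPKM in knockdown and 44.7 and 53.3 FPKM in control libraries. Its log2 fold change was 0.04 ± 0.09 under hypoxia (adjusted p = 0.698) and 0.13 ± 0.05 under normoxia (adjusted p = 0.116). Both became calls without 1 library, at 0.17 without control hypoxia replicate 2 (adjusted p = 0.0383) and at 0.18 without knockdown normoxia replicate 1 (adjusted p = 0.0384). ITGA7, best known from muscle, had levels between 0.766 and 1.75 over all libraries and was not called in either table. Under normoxia ITGA7 passed the filter only through the knockdown libraries.

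ITGA5 and ITGAV are alpha chains that recognise the RGD sequence of their ligands. ITGA5, which pairs with β1 as the main fibronectin receptor, was at 43.5 and 45.8 FPKM in knockdown libraries and 30.5 and 32.1 FPKM in control libraries under hypoxia. Its normoxia values were 9.91 and 9.68 RPKM in knockdown libraries and 17.8 and 15.2 RPKM in control libraries. Knockdown libraries were the higher ones under hypoxia and the lower ones under normoxia, with no overlap in either. ITGA5 rose 1.41-fold under hypoxia (log2 fold change 0.50 ± 0.07, limma adjusted p = 0.000895) and fell 1.62-fold under normoxia (-0.69 ± 0.09, adjusted p = 0.0026). The difference of responses was 1.19 ± 0.11 (adjusted p = 5.65e-05). It was the 1 gene of the 28 tested in both tables that was called in opposite directions in this way, lower under normoxia and higher under hypoxia, as were 1.14% of the 12070 genes tested in both.

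ITGAV, the common alpha chain of the αV integrins that bind vitronectin and latent TGF-β, was at 56.2 and 52.4 FPKM in knockdown libraries and 28.5 and 34.5 FPKM in control libraries under hypoxia. Its normoxia levels were 63.5 and 71.1 RPKM in knockdown libraries and 45.7 and 45.0 RPKM in control libraries. Knockdown was higher at both oxygen levels without overlap. The rise was 0.77 ± 0.10 on the log2 scale under hypoxia (limma adjusted p = 0.000681) and 0.56 ± 0.07 under normoxia (adjusted p = 0.00223). The difference of 0.21 ± 0.13 was not called (adjusted p = 0.206), and was 0.35 without control hypoxia replicate 2 (adjusted p = 0.0276).

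The remaining alpha chains were ITGA9, a receptor chain for tenascin C, and ITGAE, which pairs with β7 as the E-cadherin receptor of mucosal lymphocytes. ITGAE was at 8.48 and 8.22 FPKM in knockdown libraries and 21.4 and 18.8 FPKM in control libraries under hypoxia. Normoxia levels were 3.83 and 4.38 RPKM in knockdown libraries and 3.36 and 3.69 RPKM in control libraries. Its knockdown libraries were the lower group under hypoxia only, well apart from control libraries. ITGAE fell 2.25-fold under hypoxia (-1.17 ± 0.09, limma adjusted p = 9.9e-05), the greatest fall among the 36 genes, and had a log2 fold change of 0.17 ± 0.10 under normoxia (adjusted p = 0.217). The difference was -1.35 ± 0.13 (adjusted p = 6.53e-05). ITGAE shares 427 exonic bases with HASPIN on the opposite strand, which had a log2 fold change of -0.64 under hypoxia and -0.24 under normoxia, and reads of overlapping genes may be split between them. Its partner ITGB7 was below 1 in every library, as were 5 of 6 leukocyte markers.

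ITGA9 was at 1.68 and 1.77 FPKM in knockdown libraries and 0.650 and 0.684 FPKM in control libraries under hypoxia. Its normoxia levels were 1.87 and 1.99 RPKM in knockdown libraries and 1.63 and 1.44 RPKM in control libraries. Groups did not overlap, and the gap was wider under hypoxia. ITGA9 rose by 0.71 ± 0.14 under hypoxia (limma adjusted p = 0.00452), where only the knockdown libraries brought it over the filter, and had a log2 fold change of 0.21 ± 0.12 under normoxia (adjusted p = 0.207). The difference of 0.50 ± 0.16 (adjusted p = 0.0313) was not called in 5 of 8 fits without 1 library, at adjusted p between 0.0519 and 0.0993. Its antisense neighbour ITGA9-AS1 shares 535 exonic bases with it and had log2 fold changes of 1.21 under hypoxia and 1.14 under normoxia.

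All 5 beta chains that passed the filter were called higher under hypoxia, and 4 of the 5 under normoxia, beside 24.6% and 22.5% of all genes tested. The hypoxia calls of ITGB5 and ITGB8 and the normoxia call of ITGB6 were lost in some fits without 1 library. ITGB1, the shared partner of most alpha chains and the most abundant integrin chain here per length, was at 102 and 103 FPKM in knockdown libraries and 55.5 and 60.6 FPKM in control libraries under hypoxia. Under normoxia it was at 124 and 134 RPKM in knockdown libraries and 84.0 and 85.1 RPKM in control libraries. Knockdown libraries were far above control libraries in both tables. It rose 1.75-fold under hypoxia (0.81 ± 0.07, limma adjusted p = 0.000144) and 1.52-fold under normoxia (0.60 ± 0.06, adjusted p = 0.00112). The difference of 0.21 ± 0.09 was not called (adjusted p = 0.0864), and was 0.27 without control hypoxia replicate 2 (adjusted p = 0.0276).

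ITGB4, the hemidesmosome chain, was at 32.7 and 32.6 FPKM in knockdown libraries and 22.4 and 22.8 FPKM in control libraries under hypoxia. Its normoxia values were 35.6 and 32.4 RPKM in knockdown libraries and 25.7 and 24.6 RPKM in control libraries. The groups were apart in both tables. ITGB4 rose by 0.52 ± 0.06 under hypoxia (limma adjusted p = 0.000647) and by 0.42 ± 0.07 under normoxia (adjusted p = 0.00528), with an uncalled difference of 0.10 ± 0.09 (adjusted p = 0.414).

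ITGB6, the epithelial chain of the TGF-β-activating integrin αVβ6, was at 6.62 and 6.78 FPKM in knockdown libraries and 3.42 and 3.72 FPKM in control libraries under hypoxia. Its levels under normoxia were 5.53 and 5.23 RPKM in knockdown libraries and 4.06 and 4.07 RPKM in control libraries. Knockdown libraries were higher in both. The rise was 0.75 ± 0.10 under hypoxia (limma adjusted p = 0.00073) and 0.33 ± 0.08 under normoxia (adjusted p = 0.0229), and the difference 0.42 ± 0.12 (adjusted p = 0.0179). The normoxia call was lost on removal of either control library (adjusted p = 0.0958 for replicate 1 and 0.0907 for replicate 2) or of knockdown replicate 1 (0.0685). The difference lost its call in 4 of 8 fits without 1 library, at adjusted p between 0.0562 and 0.0595.

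ITGB8, the other chain that pairs with αV to bind latent TGF-β, was at 1.79 and 1.71 FPKM in knockdown libraries and 0.814 and 1.22 FPKM in control libraries under hypoxia. Normoxia levels were 3.25 and 3.70 RPKM in knockdown libraries and 1.88 and 1.82 RPKM in control libraries. Levels were low, and knockdown libraries were above control libraries in each table. It rose by 0.46 ± 0.16 under hypoxia (limma adjusted p = 0.0395) and by 0.65 ± 0.11 under normoxia (adjusted p = 0.0059). Under hypoxia ITGB8 was not called on removal of control replicate 1 (adjusted p = 0.116) or of either knockdown library (0.149 for replicate 1 and 0.118 for replicate 2). ITGB5, the chain of the vitronectin receptor αVβ5, was at 24.2 and 23.7 FPKM in knockdown libraries and 20.7 and 20.5 FPKM in control libraries under hypoxia. Its normoxia levels overlapped, at 40.2 and 38.0 RPKM in knockdown libraries and 40.4 and 39.6 RPKM in control libraries. ITGB5 rose by 0.21 ± 0.07 under hypoxia (adjusted p = 0.0325), a call lost without knockdown replicate 1 (0.224) or replicate 2 (0.16), and had a log2 fold change of -0.03 ± 0.05 under normoxia (adjusted p = 0.664). Its difference of 0.24 ± 0.08 (adjusted p = 0.0401) was not called in 5 of 8 fits without 1 library, at adjusted p between 0.0798 and 0.135.

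**Figure D2:**
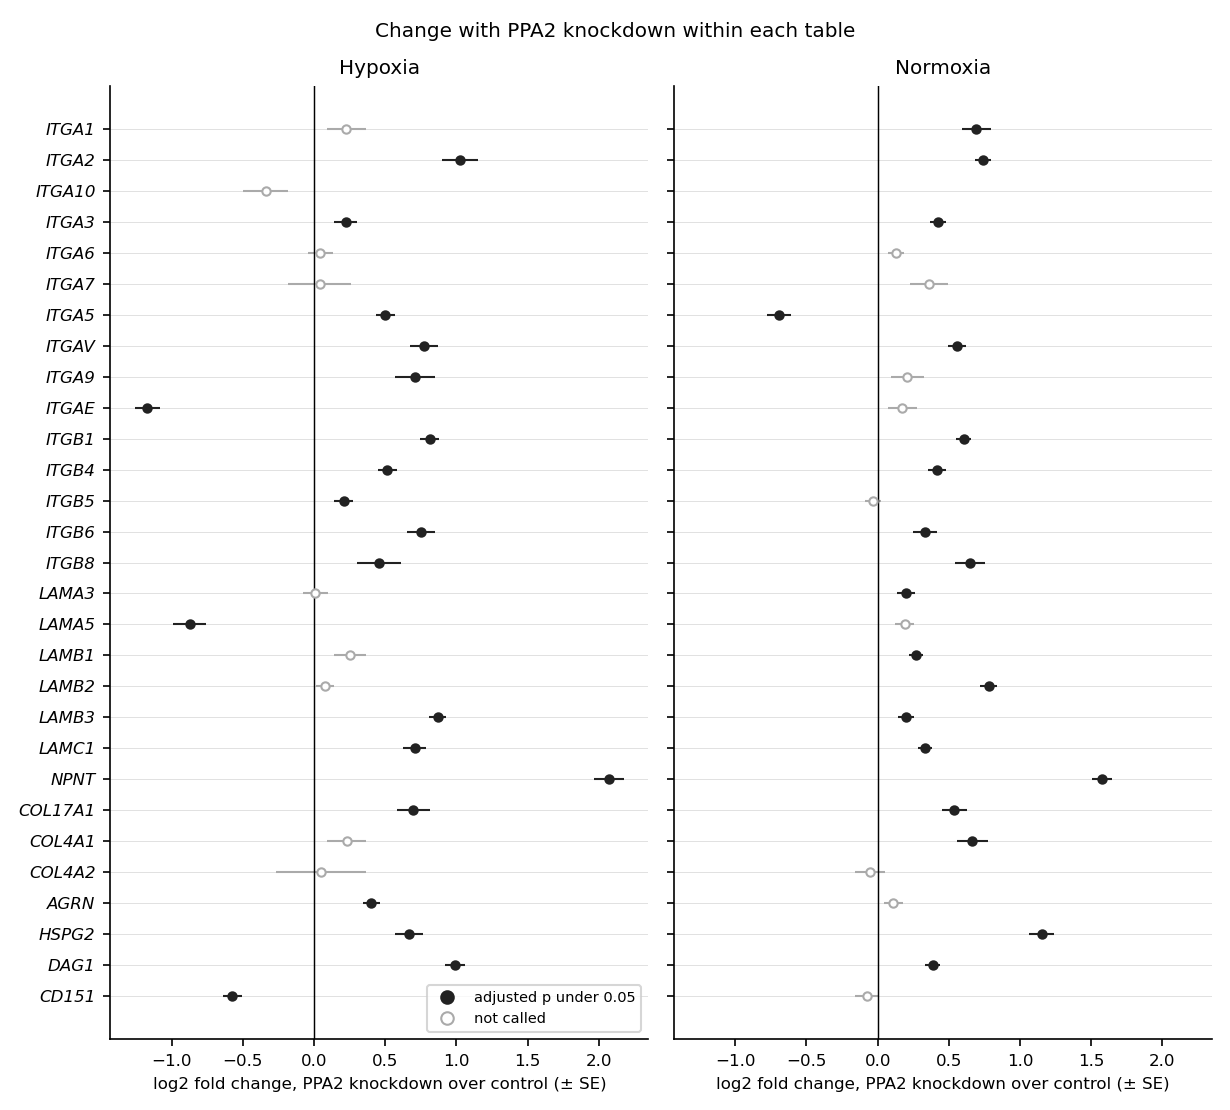
Log2 fold change of PPA2 knockdown over control with its standard error for the 29 genes, under hypoxia on the left and normoxia on the right; filled points were called at an adjusted p under 0.05 over all genes tested. Most filled points lie right of 0, with ITGAE, LAMA5 and CD151 left of it under hypoxia and ITGA5 under normoxia.

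Of 6 laminin chains tested, 2 rose and 1 fell under hypoxia, beside 24.6% higher and 33.8% lower of all genes tested. Under normoxia 5 rose, beside 22.5% of all genes tested. The difference of responses was called above 0 for 2 chains, below 0 for 2 and not called for 2. Of all genes tested, 13.4% were called above 0 and 29.0% below 0. LAMA5, an alpha chain of the laminins of mature epithelial basement membrane, was at 40.0 and 33.5 FPKM in knockdown libraries and 62.1 and 74.4 FPKM in control libraries under hypoxia. Under normoxia it was at 20.6 and 18.7 RPKM in knockdown libraries and 17.0 and 17.1 RPKM in control libraries. The knockdown libraries were the lower group under hypoxia and the higher one under normoxia. LAMA5 fell 1.83-fold under hypoxia (-0.88 ± 0.11, limma adjusted p = 0.000753) and had a log2 fold change of 0.19 ± 0.07 under normoxia (adjusted p = 0.0686). Without knockdown normoxia replicate 2 that value was 0.26 and called (adjusted p = 0.032). The difference of responses was -1.07 ± 0.15 (adjusted p = 0.000383). LAMA5 shares 244 exonic bases with ADRM1 on the opposite strand, which had log2 fold changes of -0.47 under hypoxia and 0.04 under normoxia.

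LAMB3, the beta chain of the hemidesmosomal laminin, was at 56.0 FPKM in both knockdown libraries and at 30.4 and 30.1 FPKM in control libraries under hypoxia. Its normoxia values were 42.8 and 40.2 RPKM in knockdown libraries and 36.7 and 35.4 RPKM in control libraries. The gap between the groups was wide under hypoxia and narrow under normoxia. LAMB3 rose 1.83-fold under hypoxia (0.87 ± 0.06, limma adjusted p = 8.48e-05) and by 0.20 ± 0.06 under normoxia (adjusted p = 0.0388), with a difference of 0.67 ± 0.08 (adjusted p = 0.000214). The normoxia call of LAMB3 was lost on removal of either control library (adjusted p = 0.129 for replicate 1 and 0.239 for replicate 2) or of knockdown replicate 1 (0.0788).

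The alpha chain of that laminin, LAMA3, overlapped between groups under hypoxia, at 12.9 and 11.4 FPKM in knockdown libraries and 11.7 and 12.4 FPKM in control libraries. Its log2 fold change was 0.01 ± 0.09 under hypoxia (limma adjusted p = 0.958) and 0.20 ± 0.06 under normoxia (adjusted p = 0.046), a call lost on removal of either control library (0.187 for replicate 1 and 0.235 for replicate 2) or of knockdown replicate 2 (0.104). The ratio of the LAMA3 to the LAMB3 level was 0.230 and 0.204 in knockdown libraries and 0.387 and 0.414 in control libraries under hypoxia. Under normoxia this ratio was 0.401 and 0.452 in knockdown libraries and 0.419 and 0.427 in control libraries, which overlapped.

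LAMC1, the gamma chain of most laminins, was at 31.2 and 31.8 FPKM in knockdown libraries and 17.8 and 20.1 FPKM in control libraries under hypoxia. Under normoxia LAMC1 was at 35.6 and 35.5 RPKM in knockdown libraries and 28.2 and 27.8 RPKM in control libraries. No overlap was seen in either table. It rose by 0.71 ± 0.08 under hypoxia (limma adjusted p = 0.00042) and by 0.33 ± 0.05 under normoxia (adjusted p = 0.00495), with a difference of 0.37 ± 0.10 (adjusted p = 0.011).

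LAMB2, a beta chain that can take the place of LAMB1 in laminin trimers, showed the reverse order of responses. Its levels were 49.9 and 49.4 FPKM in knockdown libraries and 46.4 and 47.7 FPKM in control libraries under hypoxia, and 38.4 and 36.9 RPKM in knockdown libraries and 22.2 and 20.8 RPKM in control libraries under normoxia. Knockdown libraries lay just above control libraries under hypoxia and far above them under normoxia. The log2 fold change of LAMB2 was 0.08 ± 0.06 under hypoxia (limma adjusted p = 0.32) and 0.78 ± 0.06 under normoxia (adjusted p = 0.000633), and the difference -0.71 ± 0.08 (adjusted p = 0.000184). LAMB1, the other of these beta chains, had similar values in both tables, 0.25 ± 0.11 under hypoxia (adjusted p = 0.0922) and 0.27 ± 0.05 under normoxia (adjusted p = 0.00871). The LAMB1 normoxia call was lost without control replicate 2 (0.0755), and the hypoxia value was 0.42 and called without control replicate 2 (adjusted p = 0.00706).

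Of the 6 further matrix proteins 4 rose at each oxygen level, beside 24.6% of all genes tested under hypoxia and 22.5% under normoxia. NPNT, nephronectin, a basement membrane ligand of integrin α8β1, lies at chr4:105894775-106004027 on the + strand in the authors' GRCh38 coordinates, on the same chromosome as PPA2 and 420708 bases from it. It was at 22.6 and 20.6 FPKM in knockdown libraries and 3.95 and 4.84 FPKM in control libraries under hypoxia. Normoxia levels were 30.8 and 33.4 RPKM in knockdown libraries and 10.5 and 9.65 RPKM in control libraries. Every knockdown library stood far above every control library of its table. NPNT rose 4.20-fold under hypoxia (2.07 ± 0.11, limma adjusted p = 3.32e-05) and 2.98-fold under normoxia (1.58 ± 0.07, adjusted p = 0.000179), the greatest change of the 36 genes in both. The difference of 0.49 ± 0.13 (adjusted p = 0.0148) was not called without control normoxia replicate 1 (0.0648), knockdown normoxia replicate 1 (0.0597) or knockdown hypoxia replicate 1 (0.0658).

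HSPG2, the gene of perlecan, was at 8.71 and 9.01 FPKM in knockdown libraries and 4.84 and 5.59 FPKM in control libraries under hypoxia. Under normoxia HSPG2 was at 7.38 and 6.77 RPKM in knockdown libraries and 2.71 and 2.54 RPKM in control libraries. Knockdown libraries were clearly the higher ones in both tables. It rose by 0.67 ± 0.10 under hypoxia (limma adjusted p = 0.00124) and by 1.15 ± 0.09, or 2.22-fold, under normoxia (adjusted p = 0.000638), with a difference of -0.48 ± 0.13 (adjusted p = 0.0137). Without control normoxia replicate 2, knockdown normoxia replicate 1 or knockdown hypoxia replicate 1 that difference had adjusted p of 0.054, 0.052 and 0.0516.

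AGRN, the gene of agrin, was at 84.0 and 81.1 FPKM in knockdown libraries and 61.9 and 62.5 FPKM in control libraries under hypoxia, and at 62.0 and 55.1 RPKM in knockdown libraries and 54.6 and 53.5 RPKM in control libraries under normoxia. The groups were well apart under hypoxia and nearly touched under normoxia. Agrin RNA rose by 0.40 ± 0.06 under hypoxia (limma adjusted p = 0.00141) and had a log2 fold change of 0.11 ± 0.07 under normoxia (adjusted p = 0.241), which was 0.19 and called without knockdown replicate 2 (adjusted p = 0.0391). The AGRN difference of 0.29 ± 0.09 (adjusted p = 0.0286) was not called in 5 of 8 fits without 1 library, at adjusted p between 0.0588 and 0.0985.

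COL17A1, the transmembrane collagen of hemidesmosomes, was at 3.57 and 3.43 FPKM in knockdown libraries and 1.87 and 1.67 FPKM in control libraries under hypoxia. Under normoxia it was at 6.04 and 6.54 RPKM in knockdown libraries and 3.81 and 4.23 RPKM in control libraries. Both tables had knockdown on top without overlap. COL17A1 rose by 0.70 ± 0.12 under hypoxia (limma adjusted p = 0.00225) and by 0.54 ± 0.09 under normoxia (adjusted p = 0.00618), with an uncalled difference of 0.16 ± 0.14 (adjusted p = 0.37).

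COL4A1 and COL4A2 encode the chains of the common type IV collagen, and start in RefSeq from the shared interval shown above. COL4A1 was at 1.55 and 1.67 FPKM in knockdown libraries and 1.31 and 1.15 FPKM in control libraries under hypoxia, and at 4.01 and 4.45 RPKM in knockdown libraries and 2.10 and 2.51 RPKM in control libraries under normoxia. Knockdown was higher in both, with the wider gap under normoxia. COL4A1 had a log2 fold change of 0.23 ± 0.14 under hypoxia (limma adjusted p = 0.186) and rose by 0.67 ± 0.11 under normoxia (adjusted p = 0.00601). Its difference of -0.44 ± 0.16 was not called (adjusted p = 0.0519), and was -0.49 without control hypoxia replicate 2 (adjusted p = 0.0458). COL4A2 was at 3.64 and 2.72 FPKM in knockdown libraries and 4.79 and 1.78 FPKM in control libraries under hypoxia, where the control libraries enclosed the knockdown libraries. Its log2 fold change was 0.05 ± 0.32 under hypoxia (adjusted p = 0.906) and -0.05 ± 0.10 under normoxia (adjusted p = 0.714). Without control hypoxia replicate 1 the COL4A2 value was 0.58 and called (adjusted p = 0.0468). The level of COL4A1 over that of COL4A2 was 1.35 and 1.70 in knockdown libraries and 0.698 and 0.875 in control libraries under normoxia, and this ratio was not tested.

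The receptor partners moved in opposite directions under hypoxia. DAG1, the gene of dystroglycan, which binds laminin, agrin and perlecan through its sugar chains, was at 53.7 and 50.2 FPKM in knockdown libraries and 25.0 and 26.3 FPKM in control libraries under hypoxia. Its normoxia values were 71.1 and 66.3 RPKM in knockdown libraries and 52.4 and 52.1 RPKM in control libraries. No knockdown library came near a control library. DAG1 rose 1.99-fold under hypoxia (0.99 ± 0.07, limma adjusted p = 8.42e-05) and 1.31-fold under normoxia (0.39 ± 0.05, adjusted p = 0.00391), with a difference of 0.60 ± 0.09 (adjusted p = 0.00059). CD151, the tetraspanin that associates with α3β1 and α6β4, was at 143 and 142 FPKM in knockdown libraries and 221 and 204 FPKM in control libraries under hypoxia. Its normoxia levels were 225 and 189.6 RPKM in knockdown libraries and 217 and 219 RPKM in control libraries. The knockdown libraries were lower under hypoxia and enclosed the control libraries under normoxia. CD151 fell 1.49-fold under hypoxia (-0.57 ± 0.07, adjusted p = 0.000456) and had a log2 fold change of -0.08 ± 0.08 under normoxia (adjusted p = 0.499), with a difference of -0.50 ± 0.11 (adjusted p = 0.00573). Without knockdown normoxia replicate 1 the CD151 value under normoxia was -0.20 and called (adjusted p = 0.029). CD151 shares 257 exonic bases with POLR2L on the opposite strand, which had log2 fold changes of -0.75 under hypoxia and -0.29 under normoxia.

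Set side by side, 28 genes were tested at both oxygen levels. Of these, 13 rose at both: ITGA2, ITGA3, ITGAV, ITGB1, ITGB4, ITGB6, ITGB8, LAMB3, LAMC1, NPNT, COL17A1, HSPG2 and DAG1. Among all 12070 genes tested in both, 12.1% did so. Another 5 rose and were called under normoxia alone (ITGA1, LAMA3, LAMB1, LAMB2 and COL4A1), beside 8.79% of all genes tested in both. Under hypoxia alone 3 were called higher (ITGA9, ITGB5 and AGRN), near the 11.7% of all genes. ITGA9 passed the hypoxia filter only through the knockdown libraries. A call at 1 oxygen level alone does not by itself show that the responses differed. ITGAE, LAMA5 and CD151 fell under hypoxia and were not called under normoxia, as were 23.5% of all genes tested in both. ITGA6, ITGA7 and COL4A2 were called in neither, beside 28.6% of all genes tested in both. Across the 28 genes both log2 fold changes correlated at r = 0.51 (rho = 0.46), beside r = 0.46 (rho = 0.46) over all genes tested in both; this is across genes, which are not independent replicates.

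The test of the difference itself, an interaction term over all 8 libraries, called 16 of 29 genes. In 9 of them, ITGA5, ITGA9, ITGB5, ITGB6, LAMB3, LAMC1, NPNT, AGRN and DAG1, the knockdown response was more positive under hypoxia. In 7 of them, ITGA1, ITGA10, ITGAE, LAMA5, LAMB2, HSPG2 and CD151, it was more negative, with ITGA10 at levels near the filter. Over all 13585 genes tested 42.4% were called, 13.4% above 0 and 29.0% below 0, and the median difference was -0.13, beside 0.10 for the 29 genes. With median-ratio scaling 12 of the 29 genes were above 0 and 6 below, and 10 and 5 with mitochondrial genome genes left out of the total. The shares of all genes given here are those of the deposited scaling, so they do not serve these rescaled counts. Calls above 0 over all genes also grew in number with median-ratio scaling. ITGA5, ITGAE, LAMA5, LAMB2, LAMB3, LAMC1 and DAG1 were called under every one of 17 alternative fits. None of these fits separates oxygen level from the table, RPKM for normoxia and FPKM for hypoxia.

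**Figure D3:**
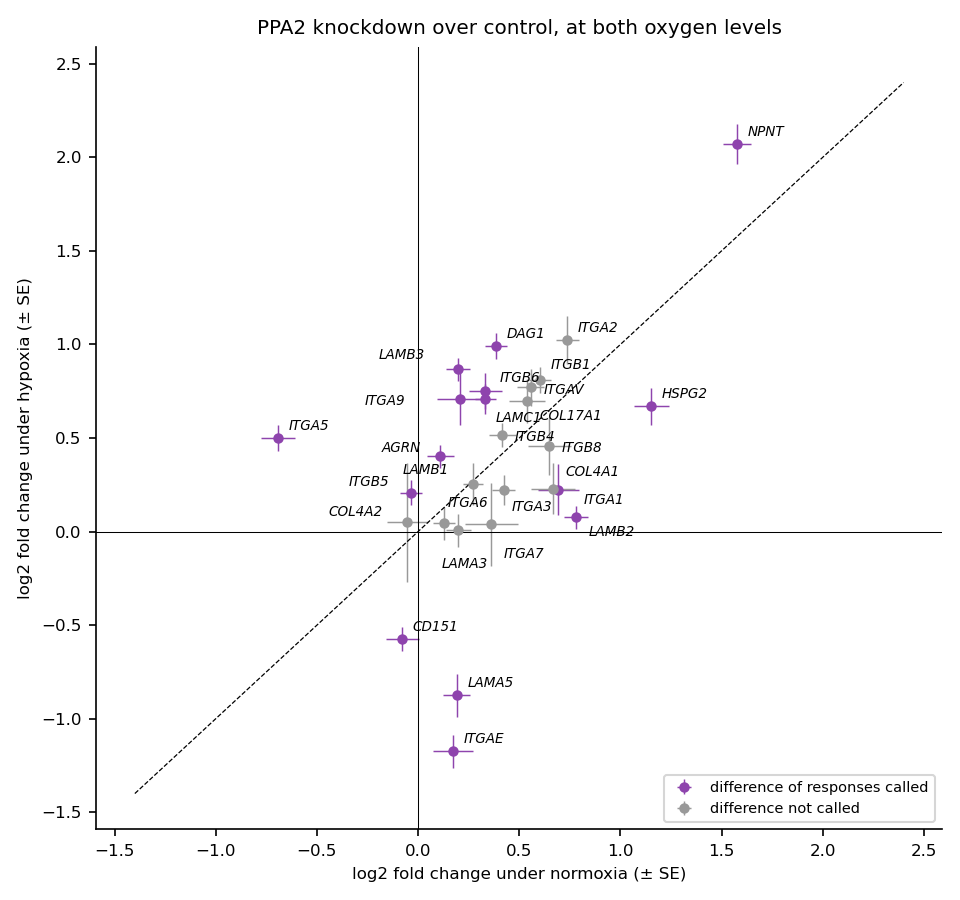
Log2 fold change of PPA2 knockdown over control under hypoxia (vertical axis) against the same under normoxia (horizontal axis) for the 28 genes tested in both tables, with standard errors and a dashed line of equal response. Purple genes were called for the difference of responses; ITGA5 at upper left, LAMA5 and ITGAE at the bottom and LAMB2 and HSPG2 below the line stand away from it.

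The make-up of each chain family was described by the share of each gene in the summed level of its family, which is per length and was not tested. The 8 beta chains summed to 168 and 169 FPKM in knockdown libraries and 104 and 109 FPKM in control libraries under hypoxia, and to 209.7 and 214 RPKM in knockdown libraries and 156 RPKM in both control libraries under normoxia. ITGB1 held 60.4% and 61.2% of that sum in knockdown and 53.6% and 55.4% in control libraries under hypoxia, and 59.2% and 62.6% in knockdown and 53.7% and 54.6% in control libraries under normoxia. Its share was higher in every knockdown library than in every control library. ITGB5 held 14.4% and 14% in knockdown and 20.0% and 18.7% in control libraries under hypoxia. Under normoxia it held 19.2% and 17.7% in knockdown and 25.8% and 25.4% in control libraries, again the reverse order to ITGB1. The RNA of ITGB5 itself was not called lower, with log2 fold changes of 0.21 under hypoxia and -0.03 under normoxia.

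Among the alpha chains, ITGA6 held 21.2% and 21.6% of the sum in knockdown libraries and 25.2% and 26.6% in control libraries under hypoxia. Under normoxia the ITGA6 share was 34.6% and 35.3% in knockdown libraries and 39.6% and 40.2% in control libraries, again lower with knockdown. The RNA of ITGA6 itself was not called, with log2 fold changes of 0.04 under hypoxia and 0.13 under normoxia. ITGA5 held 18.4% and 19.5% in knockdown and 17.1% and 16.0% in control libraries under hypoxia, and 3.98% and 3.69% in knockdown and 8.57% and 7.53% in control libraries under normoxia. The ITGAE share was 3.58% and 3.51% in knockdown and 12.0% and 9.39% in control libraries under hypoxia, and between 1.54% and 1.83% in all normoxia libraries. ITGA6 over ITGB4, the chains of the hemidesmosome integrin, had a ratio of levels of 1.53 and 1.55 in knockdown libraries and 2.0 and 2.34 in control libraries under hypoxia. Under normoxia the ratio was 2.42 and 2.86 in knockdown libraries and 3.20 and 3.29 in control libraries.

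In the laminin family LAMA5 held 17.8% and 15.3% of the summed level in knockdown libraries and 31.8% and 34.0% in control libraries under hypoxia. The LAMA5 share was between 9.18% and 10.7% in all normoxia libraries. LAMB3 held 24.9% and 25.5% in knockdown libraries and 15.6% and 13.7% in control libraries under hypoxia, and LAMC1 13.9% and 14.5% in knockdown and 9.12% and 9.19% in control libraries. The sums themselves lay close under hypoxia, at 224.9 and 219.3 FPKM in knockdown and 195.1 and 218.8 FPKM in control libraries. Under normoxia the sums were 208 and 203 RPKM in knockdown libraries and 164 and 159.9 RPKM in control libraries, and the LAMB2 share was 18.5% and 18.1% in knockdown and 13.5% and 13% in control libraries.

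**Figure D4:**
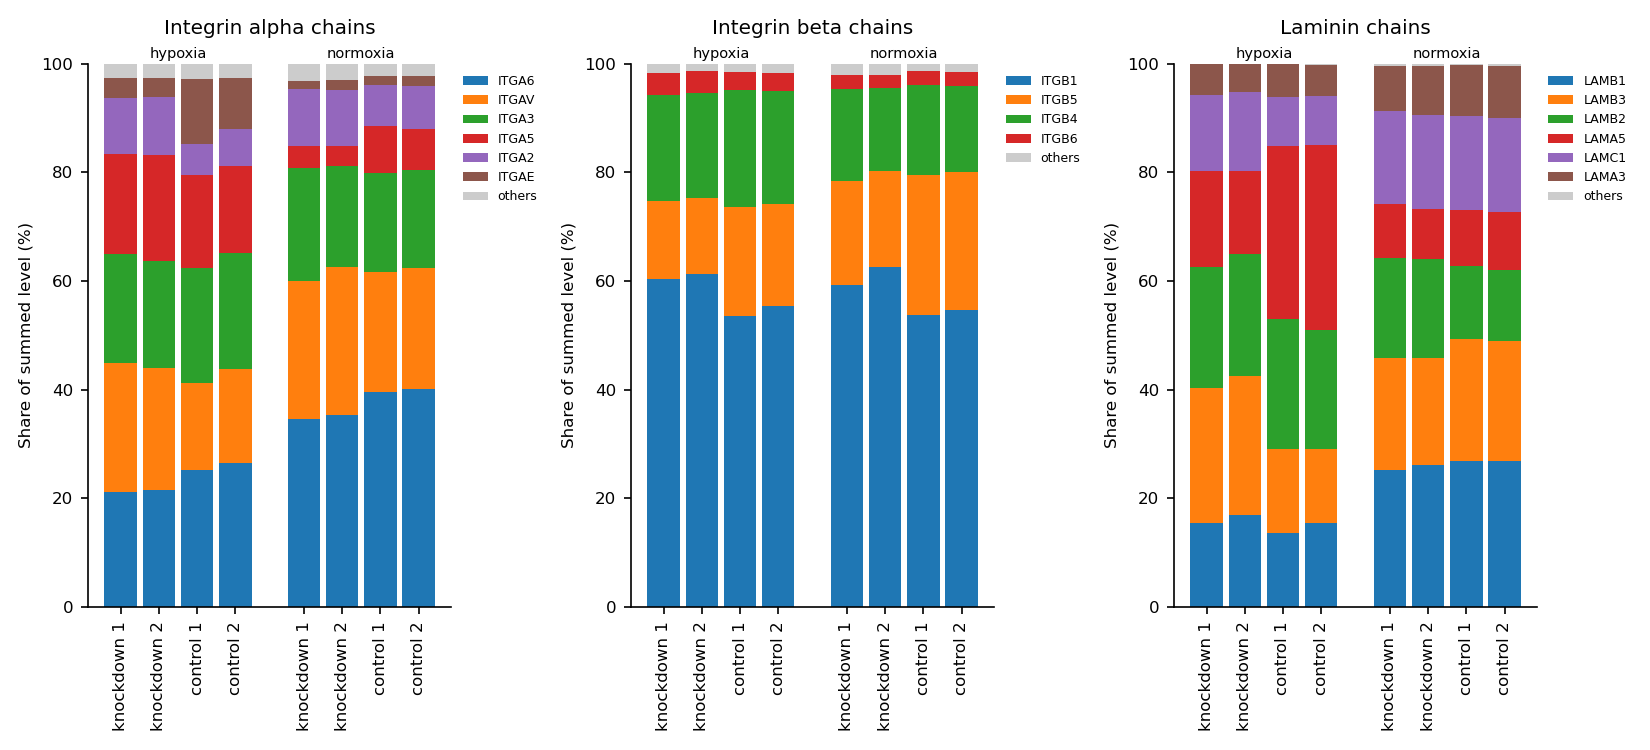
Share (%) of each gene in the summed level of the integrin alpha, integrin beta and laminin chains in each of the 8 libraries, with hypoxia left of normoxia and knockdown left of control. The red LAMA5 block of the laminin bars is about 15.3% to 17.8% in hypoxia knockdown and 31.8% to 34.0% in hypoxia control libraries. Under normoxia the red ITGA5 block of the alpha bars is smaller in knockdown than in control libraries.

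Genes that work with these receptors were counted from lists of known function, and each count stands against 24.6% higher and 33.8% lower of all genes tested under hypoxia and 22.5% higher and 11.7% lower under normoxia. Of hemidesmosome and keratin anchorage genes, 3 of 4 tested rose under hypoxia, with none falling and a median log2 fold change of 0.41: PLEC, the plectin linker (0.64), the tetraspanin CD9 (0.53) and DST, dystonin (0.28). Under normoxia 3 of 5 rose, with a median of 0.32: KRT5, a basal keratin (0.97), DST (0.47) and CD9 (0.32). The limma adjusted p of these genes ran from 0.000902 to 0.0104 under hypoxia and from 0.0032 to 0.00998 under normoxia. KRT5 passed the normoxia filter only through the knockdown libraries, and DST was not called under hypoxia without knockdown replicate 1 or 2 (0.0742 and 0.0805).

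Of intracellular adaptors of focal adhesions, 15 of 38 rose (39.5%) and 7 fell (18.4%) under hypoxia, with a median of 0.05. The greatest rises were those of NEDD9, a scaffold of the CAS family (0.82), KANK2, a talin-binding protein (0.76), and TNS3, tensin 3 (0.62), and the greatest falls those of PDLIM7 (-1.06), CRKL, an adaptor of the CRK family (-0.75), and TNS4 (-0.59). Under normoxia 8 of 38 rose (21.1%) and 4 fell (10.5%), with a median of 0.07, shares near those of all genes, led by TGFB1I1 (0.70), BCAR1, the p130CAS scaffold (0.46), and LIMS1 (0.46), and by falls of TNS4 (-0.96), CRKL (-0.46) and LASP1 (-0.27). TNS4 and CRKL fell at both oxygen levels. The adjusted p of the named genes reached 0.00066 under hypoxia and 0.0196 under normoxia by limma. TGFB1I1 was not called without knockdown normoxia replicate 1 (0.0922), nor LASP1 without control normoxia replicate 1 or 2 (0.0582 and 0.0692).

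Of integrin regulators and tetraspanins 6 of 20 rose and 6 fell under hypoxia (30% each, median 0.03), near the shares of all genes. Rises were led by RAB11FIP1, which acts in receptor recycling (0.82), the tetraspanin CD82 (0.75) and TSPAN1 (0.66), and falls by SLC3A2, the CD98 heavy chain that binds beta chains (-1.19), TSPAN4 (-0.86) and the ephrin receptor EPHA2 (-0.78). Under normoxia 7 of 20 rose (35%) and 2 fell (10%, median 0.12), with CD82 (0.99), CD47 (0.79) and TSPAN4 (0.40) above and SLC3A2 (-0.45) and CD81 (-0.43) below. TSPAN4 was thus called in opposite directions. The limma adjusted p of all named genes was at most 0.00111 under hypoxia and 0.0134 under normoxia.

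Other basement membrane proteins rose in 2 of 8 cases and fell in 1 under hypoxia (median 0.22), with NTN4, a laminin-related netrin (1.0), and FRAS1 (0.84) higher and COL7A1, the anchoring fibril collagen (-0.94), lower. Under normoxia 3 of 6 rose and none fell (median 0.33), namely NTN4 (1.07), NTN1 (0.61) and FRAS1 (0.32), the last not called without control replicate 1 (limma adjusted p = 0.0508). The list of interstitial and provisional matrix ligands also held ADAM genes and genes of TGF-β. Of its genes, 7 of 13 tested rose and 3 fell under hypoxia (median 0.30). The greatest rises were those of THBS1, thrombospondin 1 (0.70), ADAM9 (0.68) and TNC, tenascin C (0.62). LTBP3, a latent TGF-β binding protein (-1.30), CCN1 (-0.64) and MFGE8 (-0.37) fell. Under normoxia 6 of 13 rose and none fell (median 0.13), led by TNC (1.45), THBS1 (0.59) and MFGE8 (0.54), the last of which was called in opposite directions. The adjusted p of these genes was at most 0.00732 under hypoxia and 0.00834 under normoxia by limma, and TNC was not called under hypoxia without knockdown replicate 1 (0.0592).

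Genes of dystroglycan glycosylation and its complex rose in 6 of 16 cases (37.5%) and fell in 5 (31.2%, near the share of all genes) under hypoxia (median 0.18). B4GAT1, which primes the laminin-binding sugar chain (0.86), UTRN, utrophin (0.81), and POMGNT2 (0.64) were higher, and the mannosyltransferase POMT2 (-1.20), RXYLT1 (-0.61) and LARGE2 (-0.56) lower. Under normoxia 6 of 17 rose (35.3%) and 2 fell (11.8%, median 0.17), with B4GAT1 (0.56), SGCB (0.48) and UTRN (0.43) higher and POMK (-0.45) and SNTB1 (-0.21) lower. SNTB1 lost the call in 3 of 4 fits without 1 library, at limma adjusted p between 0.0828 and 0.236. Collagen and matrix processing enzymes rose in 9 of 17 cases (52.9%) and fell in 2 (11.8%) under hypoxia (median 0.40), led by the collagen hydroxylases PLOD2 (1.39) and P4HA1 (1.19) and the protease inhibitor TIMP3 (1.22), with PLOD3 (-0.92) and COLGALT1 (-0.88) lower. Under normoxia 6 of 17 rose (35.3%) and 3 fell (17.6%, median 0.08), with TIMP3 (0.87), BMP1 (0.56) and TIMP2 (0.45) higher and COLGALT1 (-0.78), P4HA1 (-0.39) and P4HB (-0.18) lower. P4HA1 was called in opposite directions, and P4HB lost its call in 3 of 4 fits without 1 library (adjusted p between 0.0729 and 0.238). None of 6 further integrin chains, mostly of leukocytes and platelets, reached the filter, and ITGA4 was listed at 0 in all 8 libraries.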

How the data were processed

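Poly(A) RNA of 8 libraries, 2 in each of 4 groups, was sequenced with a directional kit, per the labels' protocols. The submitters' processing notes list cutadapt 1.18, Trimmomatic 0.35 and FastQC for trimming and quality, and HISAT2 2.1.0 with build GRCh38 for alignment. Which tool counted the reads, whether it used strand, and with which annotation, is not given in the sources used here, so genes that share exonic bases are uncertain. The authors deposited RPKM by symbol for normoxia, per the file headers. FPKM values for hypoxia were deposited by the authors with identifier and symbol. A second sheet, deposited by the authors for 19630 genes, repeats these FPKM values with 0 differences and gave the coordinates. A further 4 columns of samples were not used.

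Each table was normalized on its own, so knockdown was tested within a table and levels were not compared between oxygen levels. The scale was log2(value + 1), on which changes of low genes come out too small, and folds are of value + 1. Genes with a mean of at least 1 were tested with limma 3.58.1 (trend) in R 4.3.3, adjusted by Benjamini-Hochberg over all genes tested and called at an adjusted p under 0.05. The difference of responses was the interaction over the 57069 symbols used once in each table. Other steps used Python 3.11.15 with pandas 2.3.3 and numpy 2.4.6. Depth of the normoxia libraries was estimated as the read total at which 89.9% to 90.7% of low single-exon values fell within 0.02 of a whole read; the hypoxia values gave no such total. Exon overlaps come from GENCODE v29.

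Same-numbered replicates did not deviate together (r = 0.04 under normoxia and -0.02 under hypoxia), so the numbers were not taken as pairs. The 36 genes, the lists and the rule for named genes were chosen with earlier results of these data known. Values in every library are given for genes called with an absolute log2 fold change of at least 0.5 or called for the difference, and for each list the 3 greatest rises and falls are named; a few genes of these lists are not reported here. ITGA3, ITGA6, LAMA3, LAMB1 and COL4A2 were described further after their values were seen. Alternatives were other pseudocounts, filters, moderation and scalings, a replicate block, a fit of all libraries and leaving out each library.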

Additional observations from a re-analysis of the deposited data

Results flagged for a closer look

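For 16 of the 29 genes tested the knockdown response differed between the hypoxia and normoxia tables by the interaction term of limma over all 8 libraries, at an adjusted p under 0.05. Each oxygen level has its own table, so oxygen level and quantification cannot be told apart here. The difference is the log2 fold change under hypoxia minus that under normoxia. It was above 0 for ITGA5 (1.19), LAMB3 (0.67), DAG1 (0.60), ITGA9 (0.50), NPNT (0.49), ITGB6 (0.42), LAMC1 (0.37), AGRN (0.29) and ITGB5 (0.24). It was below 0 for ITGAE (-1.35), LAMA5 (-1.07), LAMB2 (-0.71), ITGA10 (-0.68), CD151 (-0.50), HSPG2 (-0.48) and ITGA1 (-0.47). The log2 fold change of PPA2 itself also differed, by 1.11, and its part in these differences was not tested. Across all 13585 genes tested 42.4% were called for the difference.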

How the results depend on the processing

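Of the genes called, 17 of 20 under hypoxia, 15 of 19 under normoxia and 7 of 16 for the difference were called under every alternative run. Not called in at least 1 alternative were ITGA3, ITGB5 and ITGB8 under hypoxia, ITGB6, LAMA3, LAMB1 and LAMB3 under normoxia, and ITGA1, ITGA9, ITGA10, ITGB5, ITGB6, NPNT, AGRN, HSPG2 and CD151 for the difference. Leaving out each library gave 14 to 19 genes higher and 3 lower under hypoxia, 14 to 19 higher and 1 to 2 lower under normoxia, and 4 to 12 above 0 and 5 to 7 below 0 for the difference. Without control normoxia replicate 1 there were 4 above 0, and 5 without knockdown normoxia replicate 2, knockdown hypoxia replicate 1 or knockdown hypoxia replicate 2. The second lower gene, CD151, came without knockdown normoxia replicate 1. Without a filter on low values 6 differences were above 0 and 4 below 0, and under normoxia 1572 of all genes were higher and 777 lower. The replicate block gave 17 higher and 3 lower under hypoxia, 17 higher and 1 lower under normoxia, and 7 above 0 and 7 below 0 for the difference. Scaling without mitochondrial genome genes moved the median of all genes under hypoxia to 0.10, against -0.06 as deposited, and that of the difference to -0.02, against -0.13, with -0.0045 under median-ratio scaling, where 2765 genes were above 0. Without mitochondrial genome genes ITGB5 had 0.39 under hypoxia, and LAMB1 (0.44, adjusted p = 0.0186) and LAMB2 (0.27, adjusted p = 0.0112) became calls there, as did LAMB1 under median-ratio scaling (0.32, adjusted p = 0.0329). Signs that turned were all of uncalled values, and the cause was not tested. Leaving out 1 library gave ranges of -0.080 to 0.17 for ITGA6, -0.27 to 0.35 for ITGA7, -0.072 to 0.085 for LAMA3 and -0.48 to 0.58 for COL4A2 under hypoxia. Under normoxia they were -0.073 to 0.0060 for ITGB5, -0.12 to 0.016 for COL4A2 and -0.20 to 0.046 for CD151, and for the difference -0.21 to 0.040 for ITGA6, -0.19 to 0.15 for LAMB1 and -0.43 to 0.63 for COL4A2. Leaving mitochondrial genome genes out of the total gave 0.019 for ITGB5 under normoxia, and for the difference 0.051 for ITGA6 and 0.12 for LAMB1, with 0.059 and 0.12 under median-ratio scaling. Where a group keeps 1 library, that library is assumed to vary like the others. The median SE of a log2 fold change was 0.10 under hypoxia, 0.08 under normoxia and 0.13 for the difference, which limits calls of small changes.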

Other observations

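NPNT and PPA2 lie on the same arm of chromosome 4, which was looked at after the values of NPNT were seen. Between them lie the protein-coding genes ARHGEF38, INTS12 and GSTCD, and the INTS12 interval overlaps the start of NPNT on the opposite strand. ARHGEF38 averaged 1.02 FPKM in knockdown libraries and 1.36 FPKM in control libraries under hypoxia, and 1.91 RPKM in knockdown libraries and 1.54 RPKM in control libraries under normoxia. INTS12, a subunit of the Integrator complex, had a log2 fold change of -0.45 under hypoxia (limma adjusted p = 0.0267) and 0.09 under normoxia (adjusted p = 0.254). GSTCD had values of -0.17 (adjusted p = 0.236) and 0.03 (adjusted p = 0.819). On the far side of NPNT, TBCK was called at neither oxygen level, and AIMP1 fell by 0.50 under hypoxia (adjusted p = 0.00112) with -0.05 under normoxia (adjusted p = 0.631). TET2, on the other side of PPA2, was called in neither table. Of the genes tested within 1000000 bases of PPA2, NPNT was the 1 called higher in either table.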
